A study of Mus musculus with 32 samples.

Results

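Retinas that carried little RNA from lens or surface epithelium were compared between spaceflight and ground control mice. The 13 libraries were chosen by measured values: a library was kept where Cryaa, the alpha-crystallin of the lens, was at 1000 FPKM or less and Krt5, the keratin of basal surface epithelium, at 100 FPKM or less. FPKM are fragments per kilobase of transcript, scaled to the mapped fragments of the library. The limits kept 13 of the 16 RNA libraries of the series, 7 of 9 from spaceflight and 6 of 7 from ground control mice. The mice were female C57 BL/6J, 16 weeks old at launch and 21 weeks by their labels. Spaceflight mice lived for 37 days on the space station and were killed and frozen there. Ground control mice were kept in the same type of habitat inside a simulator of the station's climate and were killed and frozen in parallel, and no other treatment was given to either group. Carcasses were thawed for dissection after return, and each library came from 1 retina of 1 mouse and was made from total RNA after removal of ribosomal RNA. The question was which neural and glial genes differed once libraries with visible carry-over were set aside.

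The retina passes light signals from rods and cones through bipolar cells to ganglion cells, while horizontal and amacrine cells shape the signal on the way and Müller glia span the tissue and clear transmitter. Immediate early genes, such as Fos, Egr1 and the Nr4a family, are switched on within minutes by neuronal activity, growth factors or stress, without new protein being needed first, and their RNAs are short-lived. Some genes of the same early response, among them Nab2, Dusp1 and Sik1, in turn damp the signal.

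The dropped libraries were flight M21 and M22 and ground M31, all left retinas, while 10 of the 13 kept libraries were right retinas. Libraries are called here by their number in the expression table. Just inside the limits, Cryaa was 532 FPKM in ground M35 and Krt5 was 23.3 FPKM in ground M32. Just outside, Cryaa was 9594 FPKM and Krt5 121 FPKM in flight M22, and the largest excesses were 15011 FPKM of Cryaa in ground M31 and 580 FPKM of Krt5 in flight M21. Within the kept libraries, Cryaa ran from 0.107 to 327 FPKM after flight and from 1.82 to 532 FPKM in ground controls, so some lens RNA was left in both groups. It was not even: the summed FPKM of 20 lens genes had a median of 84.0 after flight and 260 in ground controls. The sums ran from 5.55 to 1017 and from 10.4 to 2008 FPKM, in the same order. The tissue label held: Gnat1, the rod transducin, was at 8194 to 12885 FPKM in every kept library. Rlbp1, the retinaldehyde carrier of Müller glia and pigment epithelium, was at 161 to 363 FPKM. Mog, a myelin marker, was listed at 0 to 0.112 FPKM.

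**Figure D1:**
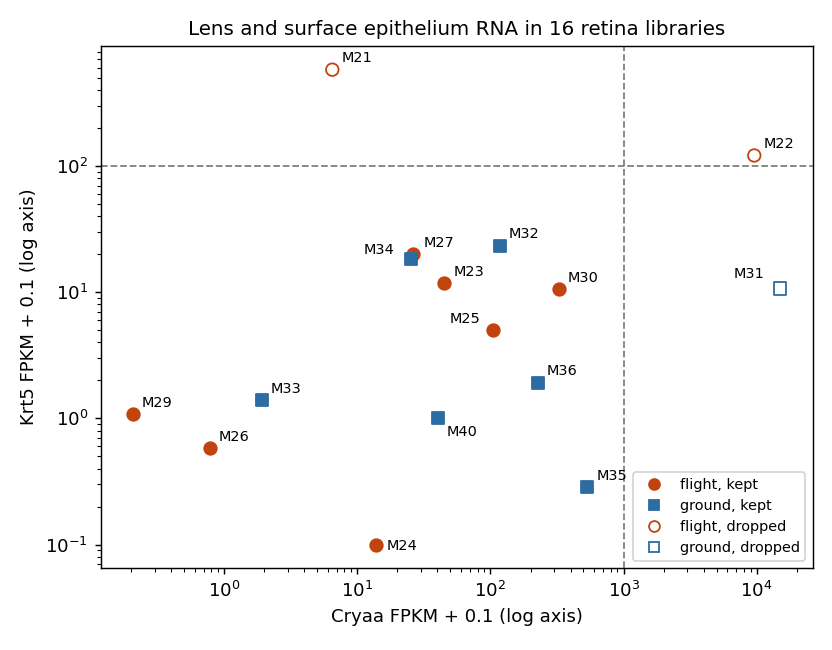
Krt5 against Cryaa in all 16 RNA libraries, both as FPKM + 0.1 on log axes, with 1 point for each library and dashed lines at the limits of 1000 and 100 FPKM. Filled circles are the 7 kept flight libraries and filled squares the 6 kept ground libraries, while the 3 open symbols past a line are the dropped ones.

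Markers of other tissue were compared by exact permutation tests of 9 values over the 1716 splits of 7 against 6 libraries. The summed FPKM of pigment epithelium genes ran from 2628 to 7281 after flight and from 2469 to 4212 in ground controls (two-sided exact permutation p = 0.906, adjusted over the 9 tests 0.906). The share of all FPKM in short structured RNAs, such as small nucleolar and spliceosomal RNAs, ran from 53.04 to 65.6% after flight and from 51.4 to 68.2% in ground controls (exact permutation p = 0.104, adjusted 0.682). The lowest adjusted p of the 9 was 0.682, the groups overlapped for each measure, and a p of this size does not show that the groups were alike. Lens and epithelium lists were not tested, since their genes chose the libraries. Blood and skeletal muscle genes were low, with Hba-a1 at 0 to 2.87 FPKM, although ground M33 stood out with 15.3 FPKM of the muscle myosin Myh4.

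Ground M32 and M40 stood apart from all other kept libraries. On the first principal component, which held 37.7% of the variance of the tested genes, they scored 41.7 and 42.8 while the other 11 lay between -14.2 and 5.58. With ground M36 they had the most ribosomal RNA, with Rn45s, the ribosomal precursor, at 1945 to 3639 FPKM against 768 to 1400 FPKM in the others. They also had, together with M36, the highest shares of short structured RNA, at 65.8 to 68.2%. In addition, the mouse numbers in the titles of 6 ground libraries differ from those of the sequencing identifiers used here, and by the titles the column of M40 would not be used. The main results are therefore also given without M32 and M40.

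Of 12622 genes at 1 FPKM or more in every kept library, 808 were called different between flight and ground (limma on log2(FPKM + 0.1), fold of at least 1.2, p of 0.05 or under and adjusted p of 0.3 or under), which is 6.4% of those tested. There were 386 higher after flight (3.06%) and 422 lower (3.34%). No gene had an adjusted p of 0.05 or under, and the lowest was 0.195, for Nab2. Of the 808, 787 had an adjusted p above 0.28, so that nearly all calls lay just under the limit of 0.3 that the study's methods set. By fold and unadjusted p alone 720 genes were higher (5.7%) and 681 lower (5.4%), and rescaling each library to the tested genes without short structured RNAs turned this balance to 1532 higher and 159 lower with no gene called. The same test on all 16 libraries called 24 of 12460 genes (0.193%), 10 higher and 14 lower.

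The count of calls hung on single libraries. Leaving out any of the 13 moved it by more than 1.5 times, from 0 without flight M24, flight M26 or ground M32 to 2204 without ground M35. Without both M32 and M40 no gene of 12762 was called, the lowest adjusted p was 0.342, and 228 genes passed fold and unadjusted p as higher (1.79%) and 147 as lower (1.15%). All 808 genes kept the sign of their change without these libraries, and 416 of them had an unadjusted p of 0.05 or under there. The 808 were picked in a fit that holds the same remaining libraries, so a kept sign was likely in advance. The same holds for the called list members given below.

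Calls followed the base composition of the transcripts. GC content had a median of 42.8% in the genes called higher, 56.3% in those called lower and 49.6% in all genes tested, over the 12112 genes with a value. Of genes above 60% GC, 14.6% were called lower and 0.188% higher, whereas of genes at 40% GC or less, 0.423% were called lower and 11.8% higher. Across genes, which are not independent replicates, Spearman's rank correlation between the log2 change and GC content was -0.62, and between the log2 change and log2 transcript length 0.10. With GC content and length taken out within each library, 5 genes were called higher and 22 lower, and that value is given beside many of the genes below. What set the GC trend was not tested.

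**Figure D2:**
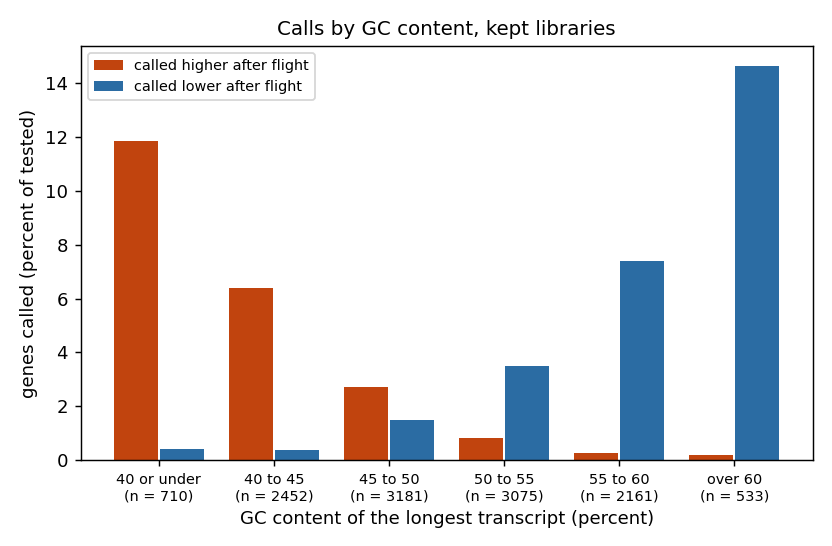
Percent of tested genes called higher (orange) or lower (blue) after flight in the kept libraries, by GC content of the longest transcript, with the number of genes in each class under its bars. Calls lower after flight rise from 0.423% of genes at 40% GC or less to 14.6% above 60% GC, and calls higher after flight fall from 11.8% to 0.188%.

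Immediate early and activity genes were the list with the highest share of calls, all of them lower after flight. Of 50 listed genes 40 were tested, 19 were called lower (47.5%, against 3.34% of all genes) and none higher, and the median log2 change was -0.36 against -0.0027 over all genes. Of the 40, 36 lay below 0. The list, like the others used here, was chosen with earlier results of these data known. For 5 members, Nab2, Nr4a1, Jun, Ier5l and Srf, every flight library lay below every ground library, which held for 36 genes or 0.285% of those tested, while 33 genes or 0.261% did not overlap in the other direction. In these bulk libraries, fewer cells of a type and less RNA per cell cannot be told apart. Ctgf, Dusp5, Fosl2, Jund, Klf10, Nr4a2, Ppp1r15a and Srf were called with log2 changes of -0.58 to -0.32, which were -0.45 to -0.19 without ground M32 and M40 and -0.60 to -0.09 with GC content and length taken out. The list has 10 members under 1 FPKM in some kept library or not in the table.

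Among the transcription factors, Nr4a1, an orphan nuclear receptor induced by calcium and cAMP, had 9.17 FPKM in the lowest, 10.8 in the median and 12.7 in the highest flight library, and 14.2, 19.6 and 45.3 FPKM in the ground libraries. Every flight library lay below every ground library, and ground M40 was highest by far. The log2 change was -1.03 ± 0.21 (SE; n = 7 and 6; limma, adjusted p = 0.239), and no other split of the 13 libraries gave as large a difference (exact permutation p = 0.000583, the smallest the 1716 splits can give, for a gene picked with its values known). Without M32 and M40 it was -0.69 ± 0.11 (limma, adjusted p = 0.342), and with GC content and length taken out -0.91 (adjusted p = 0.160).

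Fos, the partner of Jun in the AP-1 factor, had 4.82, 6.72 and 9.66 FPKM after flight and 9.23, 11.9 and 22.4 FPKM in ground controls. The highest flight library, M29, lay above the lowest ground library and the other 6 flight libraries below all ground libraries, of which M40 and M32 were the highest. Its log2 change was -0.89 ± 0.19 (SE; limma, adjusted p = 0.272) and -0.62 ± 0.15 without M32 and M40 (adjusted p = 0.719). Egr1, a zinc-finger factor used as a marker of active neurons, had 20.5, 24.5 and 30.1 FPKM after flight and 29.4, 55.8 and 109 FPKM in ground controls. The ground libraries M33, M34 and M35 lay at 29.4 to 35.2 FPKM, and M32, M36 and M40, the libraries with the most ribosomal RNA, at 76.4 to 109 FPKM. The part of that RNA in the result was not tested. Its log2 change was -1.09 ± 0.28 (SE; limma, adjusted p = 0.288) and -0.67 ± 0.21 without M32 and M40 (adjusted p = 0.830). The second fit still held M36, at 76.4 FPKM. Over the 36 alternatives run, the log2 change of Egr1 lay between -1.26 and -0.35.

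Jun had a narrow spread after flight, with 10.2, 10.8 and 11.3 FPKM. In ground controls it had 12.6, 13.7 and 20.7 FPKM, with M32 at 20.7 FPKM and M40 at 17.8 FPKM. The groups did not overlap, and its log2 change of -0.46 ± 0.11 (SE; limma, adjusted p = 0.288) became -0.28 ± 0.06 without M32 and M40 (adjusted p = 0.489). Junb, another AP-1 member, had 3.91, 5.93 and 6.67 FPKM after flight and 6.65, 9.74 and 20.7 FPKM in ground controls, where M32 and M40 were at 19.4 and 20.7 FPKM and the other 4 at 11.3 FPKM or less (log2 change -0.97, and -0.55 without M32 and M40). Nr4a3, another receptor of the family, had 1.87, 2.89 and 4.17 FPKM after flight and 2.87, 7.27 and 8.03 FPKM in ground controls. One ground library, M36, lay among the flight values, while the other 5 lay above all of them (log2 change -1.11 ± 0.23, limma, adjusted p = 0.255, and -0.95 without M32 and M40, adjusted p = 0.759).

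Of the genes that damp the early response, Nab2, the corepressor that binds EGR proteins, had the lowest p of all genes. It had 7.26, 7.88 and 11.4 FPKM after flight and 12.3, 14.4 and 17.8 FPKM in ground controls, with no overlap. The log2 change was -0.77 ± 0.12 (SE; limma, adjusted p = 0.195), -0.65 ± 0.13 without M32 and M40 (adjusted p = 0.414) and -0.58 with GC content and length taken out (adjusted p = 0.160). Sik1, a salt-inducible kinase that restrains CREB coactivators, had 4.44, 7.35 and 8.28 FPKM after flight and 7.85, 12.1 and 13.4 FPKM in ground controls. Again M36 alone of the ground libraries lay among the flight values (log2 change -0.76 ± 0.15, limma, adjusted p = 0.239, and -0.66 without M32 and M40, adjusted p = 0.719). Dusp1, the phosphatase that switches off MAP kinases, had 6.82, 9.29 and 10.7 FPKM after flight and 10.1, 11.8 and 20.9 FPKM in ground controls (log2 change -0.54 ± 0.16, limma, adjusted p = 0.288, and -0.29 without M32 and M40, adjusted p = 0.835).

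**Figure D3:**
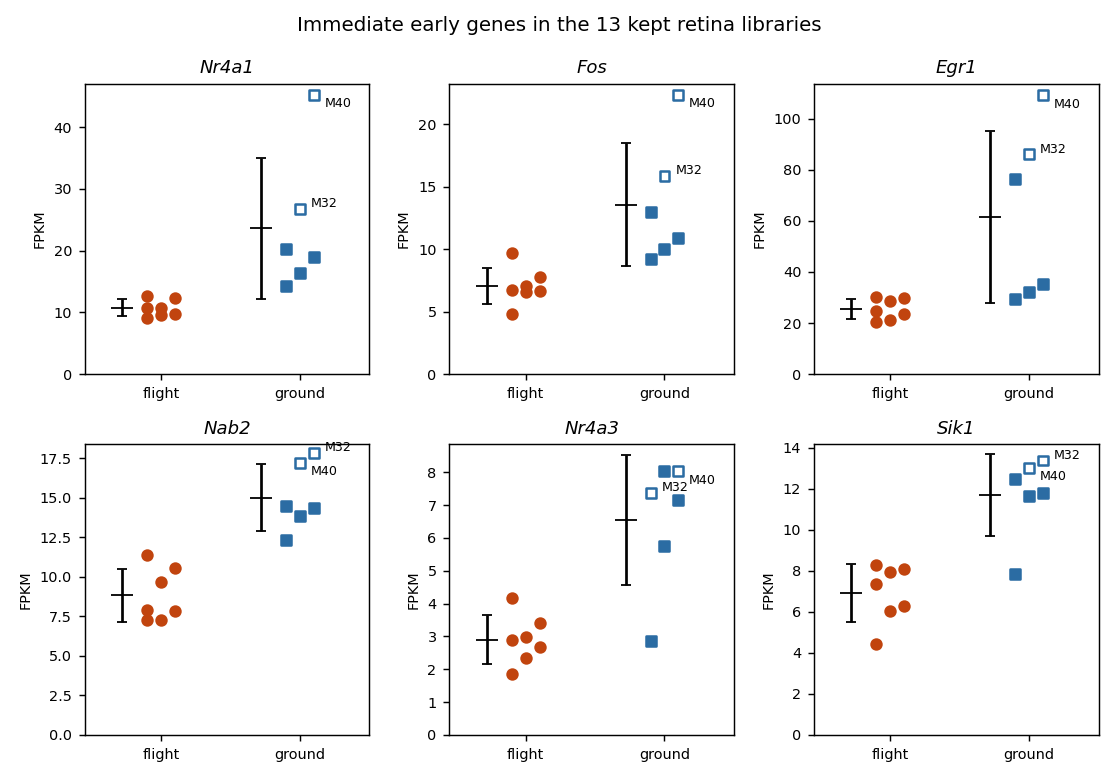
FPKM of 6 immediate early or feedback genes in the 7 kept flight (circles) and 6 kept ground (squares) libraries, with the mean and SD of each group as a bar beside the points and ground M32 and M40 as open squares. The flight libraries of Nr4a1 and Nab2 lie below all ground libraries, and M40 and M32 are the highest ground libraries for Nr4a1, Fos and Egr1.

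The list's median change was smaller without M32 and M40. Without both libraries all 19 kept their sign, 18 had an unadjusted p of 0.05 or under, 37 of the 40 tested members lay below 0, and the median was -0.21. No member was called there. By fold and unadjusted p, the number of members lower was 21 and stayed between 14 and 27 over the 36 alternatives run. With GC content and length taken out, 17 of the 19 had p of 0.05 or under, and 8 were called. The exceptions were Srf and Jund, with 64.4 and 67.1% GC, at log2 changes of -0.09 and -0.10. With the share of short structured RNA as a covariate all 19 had p of 0.05 or under and none was called. In all 16 libraries 11 of the 19 had p of 0.05 or under and 3 were called.

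The promoters of early genes are known for cAMP response elements, serum response elements and EGR sites, so the letters TGACGTCA (cAMP response element), CACGTG (the E-box bound by clock factors), TGANTCA (AP-1 site) and GCGGGGGCG (EGR site) were searched on both strands in RefSeq promoters of GRCm38.p6, from 250 bases before to 50 after each start. Of the 19 called genes 15 had an entry. TGACGTCA was in 2 of these 15 genes, CACGTG in 2, TGANTCA in none and GCGGGGGCG in 3. Among the 11247 promoters of genes tested here, of which a gene can have several, the shares were 3.1%, 10%, 4.52% and 5.58% in that order. Among all 32851 promoters they were 1.79%, 7.15%, 7.81% and 2.91%. No match says only that the letters are not in this window. Printed with their matches in capitals are Nr4a1 at chr15:101266596-101266895 on the plus strand, and Dusp1 at chr17:26508423-26508722 on the minus strand, as an example with the EGR letters, which Fosl2 and Srf also hold, and one with the cAMP letters, which Ppp1r15a also holds. Sst at chr16:23890795-23891094 on the minus strand, the neuropeptide gene that moved the other way, is shown because it also holds the cAMP letters. The windows are given 5′ to 3′ on the gene's strand, and no matches overlap.
Nr4a1: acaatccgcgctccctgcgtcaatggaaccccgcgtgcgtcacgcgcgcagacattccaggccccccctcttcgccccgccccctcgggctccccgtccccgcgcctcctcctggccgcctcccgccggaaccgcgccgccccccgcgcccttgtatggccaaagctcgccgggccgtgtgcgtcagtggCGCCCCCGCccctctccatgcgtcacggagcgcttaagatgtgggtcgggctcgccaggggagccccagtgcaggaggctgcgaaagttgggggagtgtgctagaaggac
Dusp1: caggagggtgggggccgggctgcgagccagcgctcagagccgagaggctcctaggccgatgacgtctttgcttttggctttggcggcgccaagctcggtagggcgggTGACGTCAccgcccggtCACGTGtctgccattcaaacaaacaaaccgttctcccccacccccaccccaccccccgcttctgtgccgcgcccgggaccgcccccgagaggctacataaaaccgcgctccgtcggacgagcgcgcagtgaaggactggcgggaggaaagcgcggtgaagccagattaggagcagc
Sst: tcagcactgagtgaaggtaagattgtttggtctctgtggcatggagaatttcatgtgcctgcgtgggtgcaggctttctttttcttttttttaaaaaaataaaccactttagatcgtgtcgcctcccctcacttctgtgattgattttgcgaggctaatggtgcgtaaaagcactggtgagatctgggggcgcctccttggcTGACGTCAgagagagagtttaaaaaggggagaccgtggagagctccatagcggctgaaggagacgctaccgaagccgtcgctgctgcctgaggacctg
The match began 60 bases before the start in Nr4a1, 143 bases (TGACGTCA) and 126 bases (CACGTG) before it in Dusp1, and 48 bases before it in Sst.

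All calls among circadian clock genes were lower after flight as well. Of 25 tested clock genes 5 were called lower, against 3.34% of all genes, and none higher, against 3.06%. One of the 5, Per1, is also among the 19 early genes. The list median was -0.11, and no time of day is given for the killing of either group. Dbp, a clock output factor, had 18.2, 25.04 and 26.7 FPKM after flight and 26.8, 33.5 and 60.3 FPKM in ground controls. The groups all but met at the boundary, and M40 was far above the rest (log2 change -0.62 ± 0.16, limma, adjusted p = 0.288, and -0.41 without M32 and M40, adjusted p = 0.759). It was -0.41 with GC content and length taken out. Per1 and Per2, the light-inducible repressors of the clock, changed by -0.52 and -0.35, Cry2 by -0.29 and Nr1d1, the nuclear receptor that represses Bmal1, by -0.27. In the same order they were -0.37, -0.28, -0.20 and -0.17 without M32 and M40 and -0.33, -0.25, -0.18 and -0.14 with GC content and length taken out. M40 was the highest library for Dbp, Per2, Cry2 and Nr1d1, and all 5 kept an unadjusted p of 0.05 or under without M32 and M40.

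The calls in the stress list had the same direction. Of 40 heat shock and ER stress genes, 5 were called lower, against 3.34% of all genes, and none higher (median -0.14). Ddit3, the ER stress factor CHOP, had 34.3, 37.3 and 45.3 FPKM after flight and 41.3, 51.3 and 55.4 FPKM in ground controls. Its groups overlapped, and its log2 change was -0.36 ± 0.08 (limma, adjusted p = 0.288), -0.31 without M32 and M40 (adjusted p = 0.759) and -0.44 with GC content and length taken out. Atf4, its upstream factor, the chaperones' partner Bag3, the constitutive chaperone Hspa8 and the stress sensor Sesn2 changed by -0.32, -0.48, -0.28 and -0.34. Without M32 and M40, Bag3 was -0.29, and with GC content and length taken out Sesn2 was -0.18. Of 18 tested glucocorticoid response genes, Dusp1, Per1 and Tsc22d3 were called lower (16.7%, against 3.34% of all genes) and none higher. Tsc22d3 was at -0.35 and at -0.16 without M32 and M40. Of 39 antioxidant genes only Msra, a methionine sulfoxide reductase, was called, at -0.28 and at -0.15 without M32 and M40.

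Of 385 tested neural and glial genes, 19 were called lower (4.94%) and 3 higher (0.779%), against 3.34 and 3.06% of all genes. Their median log2 change was -0.06. The direction hung on the scaling. By fold and unadjusted p, 26 were lower and 5 higher. Rescaling each library without short structured RNAs turned this to 6 lower and 16 higher, with none called. Without M32 and M40 all 22 called genes kept their sign, 16 had p of 0.05 or under, and 7 also passed the fold of 1.2. With GC content and length taken out, 15 had p of 0.05 or under and only Sst was called.

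**Figure D4:**
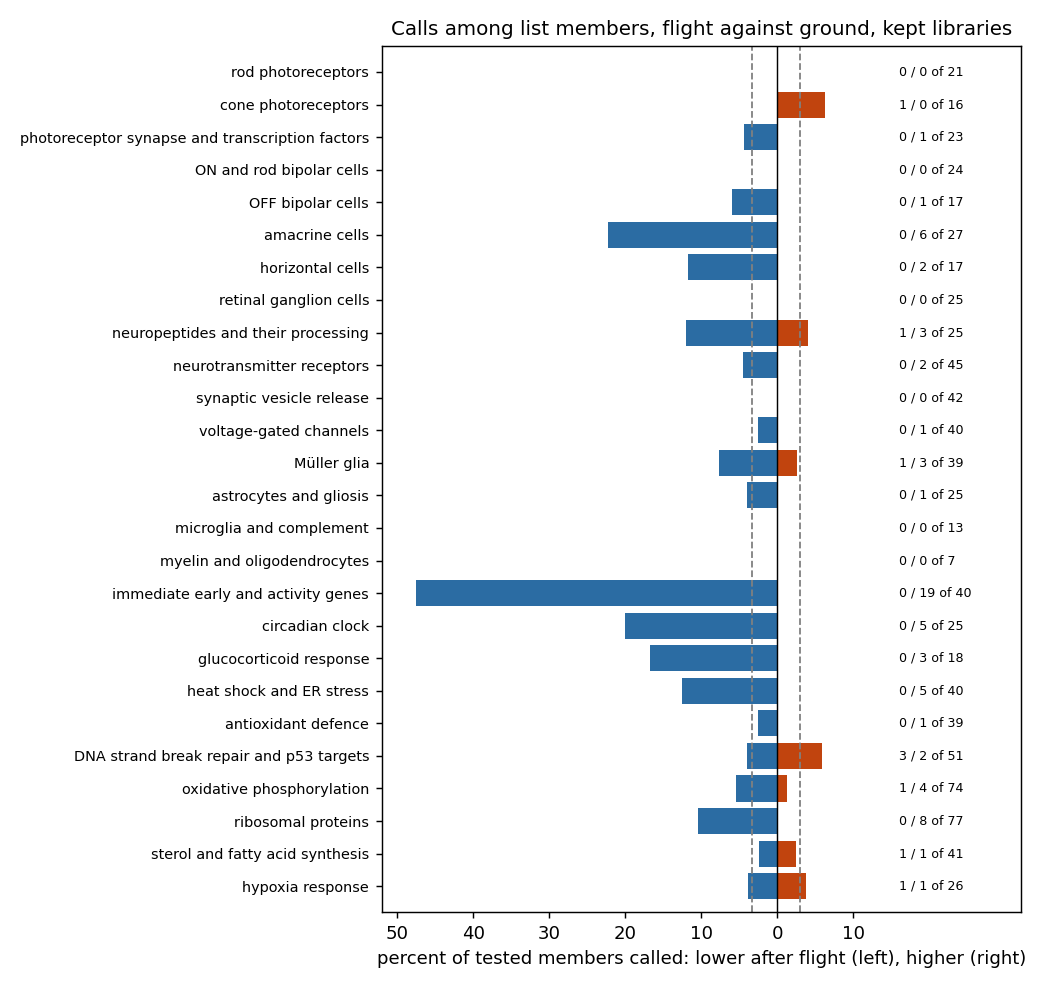
Percent of the tested members of each neural, glial and process list called lower (blue, to the left) or higher (orange, to the right) after flight in the kept libraries, with the counts higher / lower of tested at the right and dashed lines at the shares over all genes, 3.34% lower and 3.06% higher. The early gene list reaches 47.5% lower, and the rod, ON bipolar, ganglion cell, vesicle release, microglia and myelin lists have no calls.

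Of the cone genes 6.25% were called higher, against 3.06% of all genes. Of the photoreceptor synapse and transcription factor genes 4.35% were called lower, against 3.34%, and each share is 1 gene. None of 21 rod genes was called, and their median log2 change was -0.03. Of 16 cone genes, Gnat2, the alpha subunit of cone transducin, was called higher. It had 62.995, 64.8 and 85.4 FPKM after flight and 40.9, 56.9 and 68.8 FPKM in ground controls. The groups overlapped, M40 and M32 were the lowest ground libraries, and the log2 change of 0.39 ± 0.13 (limma, adjusted p = 0.288) was 0.22 ± 0.10 without them (adjusted p = 0.858). Of 23 photoreceptor synapse and transcription factor genes, Rax, a homeobox factor of photoreceptors and progenitors, was called lower (-0.34, and -0.20 without M32 and M40, adjusted p = 0.835). None of 24 ON and rod bipolar genes was called, and Gpr179, a part of the ON bipolar transduction complex, had -0.29 at an unadjusted p of 0.034 (limma, adjusted p = 0.308).

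Htr3a encodes a subunit of the serotonin-gated channel and was the only called gene of 17 in the list named for OFF bipolar cells. It was placed there by the list alone, and in these bulk libraries its RNA cannot be assigned to a bipolar type. It had 1.66, 2.37 and 3.30 FPKM after flight and 2.53, 4.12 and 5.72 FPKM in ground controls. M32 was the lowest ground library and lay among the flight values, while the other 5 were above all flight libraries. Its log2 change of -0.73 ± 0.19 (limma, adjusted p = 0.288) was thus not smaller without M32 and M40, at -0.78 ± 0.17 (adjusted p = 0.566), and it was -0.67 with GC content and length taken out.

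Amacrine genes had 6 calls of 27 tested, all lower (22.2%, against 3.34% of all genes), and a list median of -0.12. These were Slc32a1, the vesicular transporter of GABA and glycine, Slc18a3, that of acetylcholine in starburst cells, the transcription factors Tfap2a, Tfap2c and Neurod2, and the secreted protein C1ql2. Slc32a1 had 21.1, 30.5 and 33.2 FPKM after flight and 33.2, 36.3 and 45.5 FPKM in ground controls. Its groups met at 33.2 FPKM, and the log2 change of -0.40 ± 0.12 (limma, adjusted p = 0.288) was -0.30 ± 0.12 without M32 and M40 (adjusted p = 0.837) and -0.18 with GC content and length taken out (adjusted p = 0.532). Slc18a3 changed by -0.57, with M40 at 5.86 FPKM against 3.07 FPKM in the next ground library, and by -0.35 ± 0.20 without M32 and M40 and -0.37 with GC content and length taken out. Tfap2c changed by -0.33 and by -0.34 ± 0.11 without them. C1ql2 and Neurod2 each changed by -0.32, by -0.20 and -0.23 without M32 and M40 and by -0.08 and -0.16 with GC content and length taken out, and Tfap2a by -0.32 and by -0.17 without M32 and M40. Of the 6, 4 had p of 0.05 or under without M32 and M40 and 2 with GC content and length taken out. With the share of short structured RNA as a covariate 3 had. In all 16 libraries 5 of the 6 were tested, and none had p of 0.05 or under. The enzymes of GABA synthesis, Gad1 and Gad2, had unadjusted p-values of 0.71 and 0.43.

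Of 17 horizontal cell genes, Onecut1 and Slc4a3 were called lower (11.8%, against 3.34% of all genes). Onecut1, a factor that specifies horizontal cells, had 5.32, 5.94 and 6.86 FPKM after flight and 6.09, 8.50 and 14.5 FPKM in ground controls. One ground library lay among the flight values and M40 was highest (log2 change -0.60 ± 0.15, limma, adjusted p = 0.288). It was -0.37 ± 0.11 without M32 and M40 and -0.60 with GC content and length taken out. Slc4a3, an anion exchanger, changed by -0.39, by -0.22 without M32 and M40 and by -0.25 with GC content and length taken out. None of 25 ganglion cell genes was called, and Rbpms, the pan-ganglion cell marker, had 13.4 to 26.9 FPKM after flight and 11.5 to 26.2 FPKM in ground controls.

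Sst, which encodes the neuropeptide somatostatin of amacrine and displaced amacrine cells, was higher after flight and had the largest change of any called gene. It had 7.32, 13.9 and 24.9 FPKM after flight and 1.95, 5.004 and 7.69 FPKM in ground controls. Only the lowest flight library lay below the highest ground libraries, M32 and M34, and the mean was 14.3 ± 5.74 (SD, n = 7) against 5.10 ± 2.41 (SD, n = 6). The log2 change was 1.53 ± 0.32 (SE; limma, adjusted p = 0.255), 1.83 ± 0.34 without M32 and M40 (adjusted p = 0.342) and 1.66 with GC content and length taken out (adjusted p = 0.160). It was the single neuropeptide gene called higher of 25 tested, while the granins Chga and Chgb and the convertase inhibitor Pcsk1n, all of dense-core vesicles, were called lower at -0.28, -0.29 and -0.30. They were -0.16, -0.27 and -0.18 without M32 and M40 and -0.13, -0.23 and -0.17 with GC content and length taken out. Npy and Vgf had -0.38 and -0.49 and were not called (limma, adjusted p = 0.315 and 0.303).

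**Figure D5:**
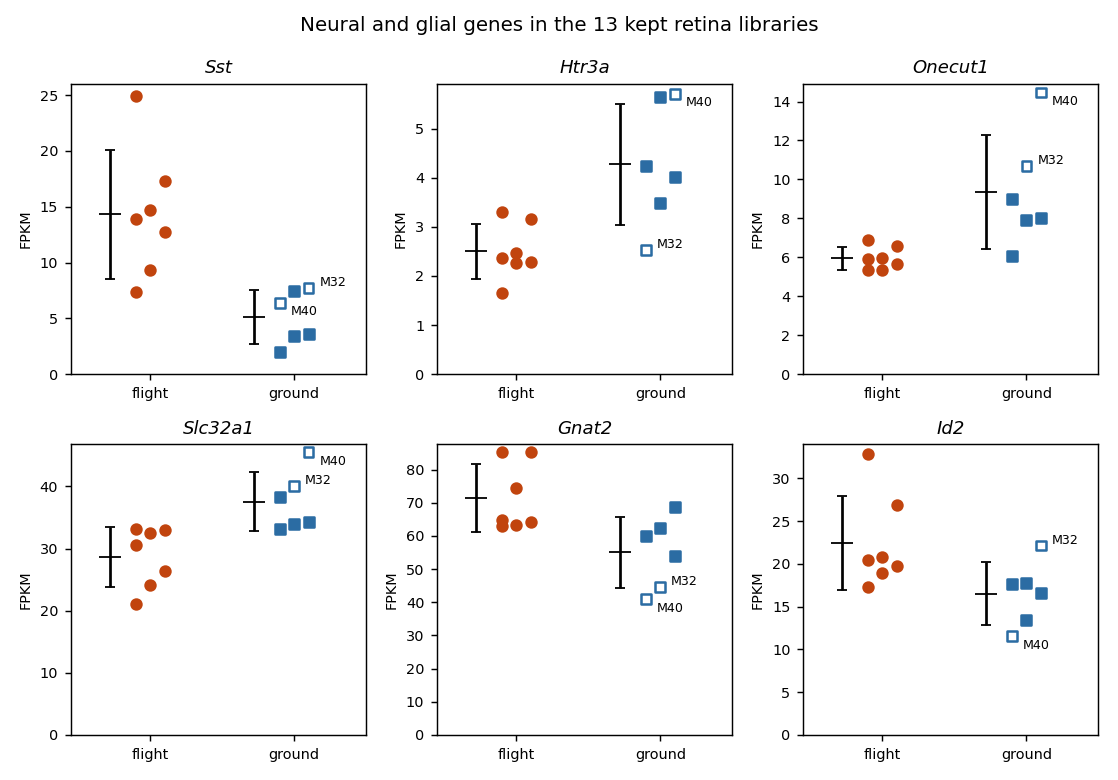
FPKM of 5 neural genes and the Müller glia gene Id2 in the 7 kept flight (circles) and 6 kept ground (squares) libraries, with the mean and SD of each group as a bar beside the points and ground M32 and M40 as open squares. Sst is higher after flight, at 7.32 to 24.9 FPKM against 1.95 to 7.69 FPKM, and the groups of all 6 genes overlap or meet.

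Of the receptor genes 4.44% were called lower and of the voltage-gated channel genes 2.5%, against 3.34% of all genes, and none was called higher. Of 45 tested receptor genes, Htr3a and Grm4, a metabotropic glutamate receptor, were called lower, Grm4 at -0.46, at -0.27 without M32 and M40 and at -0.23 with GC content and length taken out. Chrm2 and Gabbr2 had -0.36 and -0.31 and were not called (limma, adjusted p = 0.301 and 0.312). Of 40 voltage-gated channel genes, Kcnh2, the ERG potassium channel, was called lower at -0.39, which was -0.25 without M32 and M40 and -0.18 with GC content and length taken out, and none of 42 vesicle release genes was called.

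Among glia, 4 of 39 Müller genes were called, 1 higher (2.56%) and 3 lower (7.69%), against 3.06 and 3.34% of all genes. Id2, an inhibitor of basic helix-loop-helix factors, was higher, with 17.3, 20.5 and 32.9 FPKM after flight and 11.6, 17.1 and 22.2 FPKM in ground controls. The groups overlapped, and its log2 change of 0.44 ± 0.16 (limma, adjusted p = 0.294) was 0.43 ± 0.15 without M32 and M40 and 0.34 with GC content and length taken out. The bridging protein Mfge8 and the progenitor and glial factors Sox2 and Sox8 were lower, at -0.34, -0.31 and -0.28. Without M32 and M40 they were at -0.23, -0.23 and -0.20, and no Müller gene was lower there by fold and unadjusted p. Glul, the glutamine synthetase of Müller cells, had -0.28 and the water channel Aqp4 0.33, and neither was called (limma, adjusted p = 0.307 and 0.315). Glul was -0.17 and Aqp4 0.08 without M32 and M40. Of 25 astrocyte and gliosis genes, Cebpd was called lower at -0.42 and was -0.21 without M32 and M40, while Gfap, the marker of reactive glia, had 1.94 to 4.96 FPKM after flight and 1.87 to 3.68 FPKM in ground controls. None of 13 microglia and 7 myelin genes was called, and most members of these lists were under 1 FPKM in some library.

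Calls in the other process lists are set against 3.06% higher and 3.34% lower over all genes. Of 51 repair and p53 target genes, Mdm2, Rrm2b and Smug1 were called higher, at 0.35, 0.27 and 0.29, and Xrcc1 and Sesn2 lower. Without M32 and M40 the 3 higher genes were at 0.12, 0.15 and 0.25, and with GC content and length taken out Rrm2b was at 0.08. Xrcc1, the scaffold of single-strand break repair, had 10.5, 12.3 and 13.2 FPKM after flight and 14.3, 14.97 and 19.3 FPKM in ground controls. The groups did not overlap (log2 change -0.38 ± 0.08, limma, adjusted p = 0.272), and the change was -0.29 ± 0.07 without M32 and M40 and -0.22 with GC content and length taken out. Of 77 ribosomal protein genes 8 were called lower (10.4%), whose reads can be shared with pseudogenes, and of 74 oxidative phosphorylation genes 4 were lower and 1 higher. Of 26 hypoxia genes, Stc1, the secreted stanniocalcin, was lower at -0.70 and Ero1l higher at 0.41, and of 41 sterol and fatty acid genes Hsd17b7 was higher at 0.33 and Mid1ip1 lower at -0.39. Without M32 and M40, Ero1l, Hsd17b7 and Mid1ip1 were 0.19, 0.19 and -0.14, while Stc1 was -0.73. With GC content and length taken out, Ero1l and Hsd17b7 were 0.26 and 0.22. Among lists of other tissue 7 of 123 tested genes were called, chosen here after their values were seen: Kcnj13, Itm2a and Ly6a higher and Nog, Wfikkn2, Col8a2 and Esam lower, and Nog, a BMP antagonist, changed most at -1.06. Of 14 tested ciliary body, iris and anterior segment genes, 3 were called lower (21.4%, against 3.34% of all genes). By fold and unadjusted p, 3 were also lower without M32 and M40. Below 0 lay 13 of 14 smooth muscle and pericyte genes and 18 of 24 fibroblast and matrix genes, with none called. Without M32 and M40, 9 lay below 0 in each list.

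Outside the lists, the genes of lowest p included Midn, a midnolin gene, with 14.3, 15.8 and 16.6 FPKM after flight and 18.4, 21.1 and 30.2 FPKM in ground controls. Its groups did not overlap (log2 change -0.54 ± 0.11, limma, adjusted p = 0.239), and it was -0.37 ± 0.06 without M32 and M40 (adjusted p = 0.342). The coiled-coil gene Ccdc85b and the splicing factor U2af1 changed by -0.44 and -0.39. Higher after flight were Oasl2, an interferon-induced gene, at 5.54, 7.66 and 10.025 FPKM against 3.84, 4.84 and 5.44 FPKM, and Ccl9, a chemokine, at 1.51, 1.71 and 2.48 FPKM against 1.07, 1.19 and 1.399 FPKM. Neither gene's groups overlapped, and their log2 changes of 0.67 ± 0.15 and 0.57 ± 0.13 (limma, adjusted p = 0.272 for both) were 0.66 and 0.53 without M32 and M40.

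Dropping the 3 libraries with carry-over changed single genes unevenly, in fits that share their other libraries. Fos changed by -0.89 in the kept libraries and by -0.66 in all 16 (limma, adjusted p = 0.369), Sik1 by -0.76 and -0.55 (adjusted p = 0.442), Jun by -0.46 and -0.28 (adjusted p = 0.452), and Junb by -0.97 and -0.56 (adjusted p = 0.490). Onecut1 changed by -0.60 and -0.33 (adjusted p = 0.565), and Tfap2c by -0.33 and -0.10 (adjusted p = 0.821). Sst, Nr4a3 and Nr1d1 were close in both, at 1.53 and 1.55, -1.11 and -1.06, and -0.27 and -0.24. Htr3a went the other way, with -0.73 in the kept libraries and -0.92 in all 16.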

How the data were processed

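RNA was extracted from 1 retina per mouse, and stranded libraries were made after rRNA removal with the NuGEN Ovation Mouse kit. Trimmomatic, then TopHat2 on GRCm38 and Cufflinks were run by the authors, who deposited FPKM per gene. The table has 26630 entries; 1 entry lacks a name and holds at most 0.388% of any library's total. Genes were those of the NCBI GRCm38 gene model, whose release is not given in the sources used here. Since FPKM hold no read counts, the depth behind each value is unknown, and the authors' Cuffdiff test cannot be repeated.

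Of 18 columns, 16 were matched to samples and 2 were not used. For 6 ground libraries the titles and the sequencing identifiers give different mouse numbers, and the identifiers were followed. The condition label of M21 contradicts its source name, but M21 was among the dropped libraries. The methylation tables were not used. No pair of libraries held identical values.

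Genes at 1 FPKM or more in every kept library were compared with limma 3.58.1 in R 4.3.3 (mean-variance trend, log2(FPKM + 0.1), two-sided, Benjamini-Hochberg over all tested genes), so that fold changes are on that scale and understate the change of low genes. The call thresholds are those of the study's methods. Single values were compared by exact permutation over 1716 splits. Each mouse is 1 replicate. GC content and length were taken from the longest GENCODE M21 transcript, with a straight and a squared term each.

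The libraries, the 37 gene lists and the named genes were chosen with earlier results of these data known. Named were each list member called, the 15 genes of lowest p in each direction, up to 3 uncalled members with p of 0.05 or under for each neural or glial list, up to 10 genes called in the kept but not in all libraries, the first 3 genes of each cell type list for levels, and Sst, Htr3a, Nab2, Xrcc1, Abcf1, Cryaa and Krt5; the text gives those that the comparisons turn on. Alternatives were the carry-over limits, pseudocount, filter, scaling, variance model, eye, covariates and each library left out. Leaving out M32 and M40, with or without M36, library weights and the GC and length correction were added after the data were seen. The fit was checked on simulated data.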

Additional observations from a re-analysis of the deposited data

Results flagged for a closer look

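In the kept groups of 7 and 6 libraries, 19 of 180 gene and group pairs had 1 library far from the others by Dixon's ratio of gap to range, where chance flags about 1 in 20. Ground M40 was that library for 10 of the 19, always as the highest: Chga 115 FPKM, Cry2 34.2 FPKM, Dbp 60.3 FPKM, Neurod2 13.5 FPKM, Nr1d1 283 FPKM, Per2 12.4 FPKM, Rax 59.5 FPKM, Sesn2 5.38 FPKM, Slc18a3 5.86 FPKM and Vgf 29.4 FPKM. All but Vgf were called lower after flight. Flight M23 was highest for Rlbp1 at 363 FPKM and for the anterior segment genes Col8a2 at 36.2 FPKM and Wfikkn2 at 10.97 FPKM, and flight M25 for Tsc22d3 at 10.95 FPKM and Hba-a1 at 0.622 FPKM. Among lens and muscle genes, Cryaa reached 327 FPKM in flight M30 and Myh4 15.3 FPKM in ground M33. Ground M36 was lowest for Sik1 at 7.85 FPKM, and ground M32 was the single ground library with Mog above 0, at 0.0821 FPKM.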

How the results depend on the processing

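The count of genes called, 808, and of neural and glial members among them, 22, were given by few settings. Both were within 1.5 times with a pseudocount of 1 or 0.01, without the variance trend and with robust variance. Centring on the median gave 1315 genes, and Rpe65 as covariate 1252. Limits of 500 FPKM of Cryaa and 50 FPKM of Krt5 gave 2204 and 52, and the lens limit alone 1427 and 40. All 16 libraries gave 24 and 2, and a mean FPKM of 1 or more gave 4 and 0. Both counts were 0 with the epithelium limit alone, all libraries but M21, no filter, rescaling without short structured RNAs, eye, Cryaa or short RNA share as covariate, and without M32 and M40. By fold and unadjusted p, limma gave 375 to 1759 genes in the settings with a count of 0, and no other tool was run. Right retinas only gave 1 and 0 by either numbering, library weights 195 and 3, the GC and length correction 27 and 1, and leaving out M32, M36 and M40 gave 4 and 0. Leaving out 1 library gave 0 to 2204 genes and 0 to 52 members. The causes were not tested beyond these settings.

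None of 114 named genes with an unadjusted p of 0.05 or under changed sign in 36 alternatives, but 2215 of the 4098 gene and setting pairs lost their call and 63 gained one. No paired analysis was possible because the flight and ground mice share no replicate numbers that pair them. The unknown depth limits low genes, such as Htr3a and Ccl9, most.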
